A study of Mus musculus with 8 samples.

Results

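The collagen genes of the mouse were followed in the livers of mice given anti-miR-128-3p, which inhibits the microRNA miR-128-3p, and of controls. Members were the protein-coding genes with a symbol of the form Col, number, a, number that had an array probe set assigned to that gene alone. This gave 41 collagen genes out of 30627 genes measured on the array, and 41 of the 44 such symbols in the RefSeq table used for names. Col7a1, Col20a1 and Col25a1 were not members, because the array annotation ties their probe sets to more than 1 gene or gene record. By class, 11 members were fibrillar collagens, 6 were the type IV chains of basement membranes and 24 belonged to other classes. Each member had 1 probe set.

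RNA came from 8 livers of male C57BL/6 mice, all kept on a high fat diet during 13 weeks. In the anti-miR-128-3p group 4 mice had received 5 injections of the inhibitor into the peritoneal cavity, and the 4 control mice had received 5 control injections. The labels call the control a vehicle in one field and only a control in another, and one treatment field names miR-128-3p itself rather than its inhibitor, so the titles were followed in forming the groups. The labels give no age, no dose and no measurement of miR-128-3p after the injections. The titles number the mice within each group, and nothing states outright that each array is a separate animal, so that p-values measure the spread between these 8 arrays.

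miR-128-3p is a 21-base RNA that is made from 2 hairpins, and its sequence is printed because its seed (bases 2 to 8, in capitals) is the stretch through which it recognises its messenger RNA targets. In the RefSeq annotation of GRCm38.p6 the same mature sequence lies on the plus strand at chr1:128202404-128202424, in Mir128-1, and on the minus strand at chr9:112118644-112118664, in Mir128-2.
miR-128-3p: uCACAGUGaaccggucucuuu

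Collagens are the main structural proteins of the extracellular matrix, each built from chains that wind around one another in a long helix. Fibrillar collagens (types I, II, III, V, XI, XXIV and XXVII) assemble into cross-banded fibrils, type IV collagen forms the sheet-like network of basement membranes, and the remaining types form beaded filaments, decorate fibrils or span the cell membrane. In liver the fibrillar collagens are made mainly by stellate cells and portal fibroblasts, and deposition of types I and III is the hallmark of scarring, whereas a normal sinusoid has little fibrillar collagen and an incomplete basement membrane. Hepatocytes are the main hepatic source of type XVIII collagen.

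The values are log2 signals made by RMA (robust multi-array average), so a difference of 1 is a factor of 2 in signal, and each difference is anti-miR-128-3p minus control with limma's standard error. The median signal over all genes lay between 5.04 and 5.12 in the anti-miR-128-3p arrays and between 5.04 and 5.12 in the control arrays. The negative control features of the same arrays had medians from 4.32 to 4.48, and pairs of arrays correlated at r between 0.992 and 0.996 across genes, which are not independent replicates. All 8 measured hepatocyte markers were above the 95th percentile of the negative controls in every array, whereas only Col14a1 and Col18a1 among the collagens were. Col10a1 and Col19a1 were at or below the median of the negative controls in all 8 arrays, and Col4a6, Col8a1 and Col12a1 were so in some of them. The whole liver was measured, so fewer cells of a type and less RNA per cell cannot be told apart.

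Col1a1, Col1a2, Col3a1, Col5a1 and Col5a2 of the interstitial fibrils and Col6a1, Col6a2 and Col6a3 of type VI collagen had higher mean signals in the anti-miR-128-3p livers, by log2 differences between 0.27 (Col5a1) and 1.62 (Col1a1). These genes were the collagens higher at an unadjusted p under 0.05 in limma, with all arrays and again without anti-miR-128-3p liver 3. They were not chosen by size. The other 33 collagens lay between -0.23 and 0.52, and Col12a1 at 0.52 exceeded several of the named genes. No collagen passed an adjusted p of 0.05 in limma, and the same was true of every gene on the array (0% called, smallest adjusted p 0.194, 2337 genes at an unadjusted p under 0.05). At that unadjusted threshold 10 of 41 collagens were higher, where 4.26% of all genes were, and 1 was lower, where 3.37% of all genes were. In 5 collagens (Col1a1, Col1a2, Col3a1, Col6a1 and Col6a3) every anti-miR-128-3p liver was above every control liver, against 2.52% of all genes, and in 0 collagens was every one below, against 1.89%. Leaving out 1 array gave 5 to 12 collagens wholly above the controls (3.18% to 4.83% of all genes) and 0 or 1 wholly below (2.89% to 3.99% of all genes). Without anti-miR-128-3p liver 2 there were 10 above (4.71% of all genes under the same omission) and 1 below, Col10a1 (3.99% of all genes). Without control liver 1 there were 12 above (4.66% of all genes) and 1 below, Col14a1 (3.5% of all genes). Without control liver 4 there were 5 above (3.98% of all genes) and 1 below, again Col10a1 (3.49% of all genes).

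Over all 41 members 32 differences were above 0 and 9 below, with a median of 0.05, and over all genes 49.1% were above 0 with a median near 0 (-0.0017). All 11 fibrillar members had a difference above 0, with a median of 0.09. Of the 6 type IV chains 4 were above and 2 below, with a median of 0.07. The 24 members of other classes divided into 17 above and 7 below, with a median of 0.02. That last median was -0.0070 without anti-miR-128-3p liver 1, so its sign rested on that array.

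**Figure D1:**
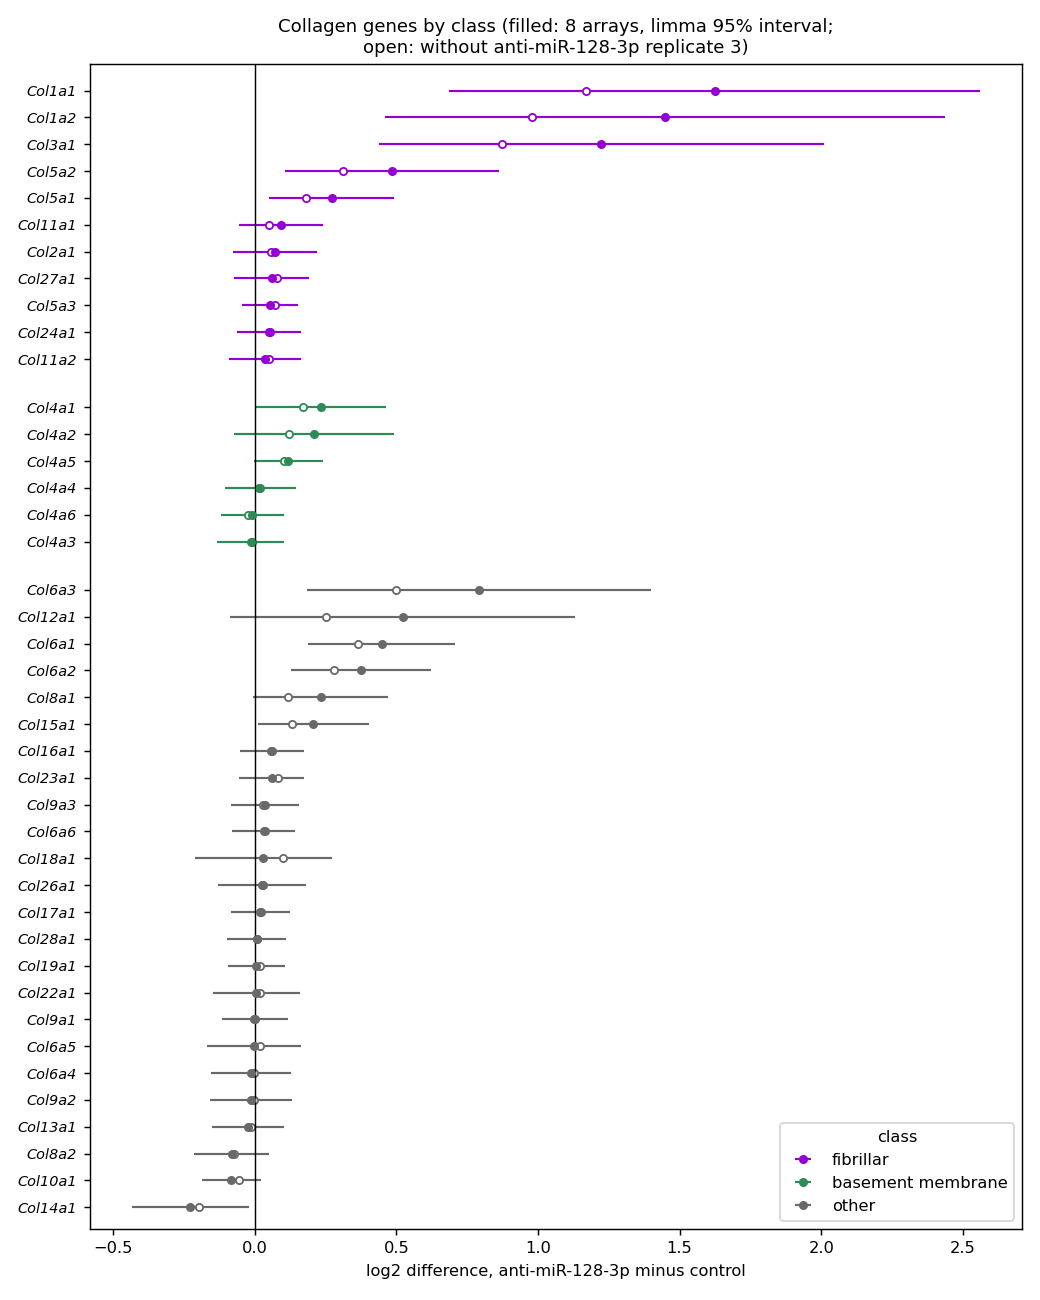
Log2 difference, anti-miR-128-3p minus control, of each of the 41 collagen genes (rows, grouped as fibrillar, basement membrane and other). Filled points use all 8 arrays and carry limma's 95% interval, and open points leave out anti-miR-128-3p liver 3. Intervals lie wholly above 0 for 10 genes (4.26% of all genes) and wholly below 0 for Col14a1 (3.37% of all genes). The type I and III chains stand farthest to the right at 1.22 to 1.62.

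Col1a1 encodes the main chain of type I collagen, the most abundant collagen of scar tissue. Its signal was 8.09, 7.65, 9.96 and 8.68 in anti-miR-128-3p livers 1 to 4, against 6.99, 7.00, 6.88 and 7.01 in control livers 1 to 4. Every anti-miR-128-3p liver was above every control liver, and the treated livers were spread over 2.31 log2 units where the controls were spread over 0.12. The difference was 1.62 ± 0.41 (SE, n = 4 each), with a 95% interval from 0.69 to 2.56 and an adjusted p of 0.342 in limma. All 4 control values lay below the 95th percentile of the negative controls of their arrays (7.40 to 7.50), so the size of the difference is measured from a level not above that mark. Without anti-miR-128-3p liver 3 it was 1.17 ± 0.20 (SE), with an adjusted p of 0.228 in limma.

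Col1a2 encodes the partner chain in the same molecule. Its signal was 7.08, 6.86, 9.18 and 7.96 in anti-miR-128-3p livers 1 to 4, against 6.31, 6.45, 6.15 and 6.39 in control livers 1 to 4. The groups did not overlap, and the livers with the most Col1a1 signal were also those with the most Col1a2 signal. The difference was 1.45 ± 0.44 (SE, n = 4 each; limma adjusted p = 0.455), and 0.98 without anti-miR-128-3p liver 3.

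Col3a1 encodes type III collagen, which co-assembles with type I in thin reticular fibrils. Its signal was 7.50, 7.23, 9.03 and 8.14 in anti-miR-128-3p livers 1 to 4, against 6.56, 7.13, 6.56 and 6.76 in control livers 1 to 4. The groups did not overlap, but control liver 2 (7.13) was close to anti-miR-128-3p liver 2 (7.23). The difference was 1.22 ± 0.35 (SE, n = 4 each; limma adjusted p = 0.406), and 0.87 without liver 3.

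**Figure D2:**
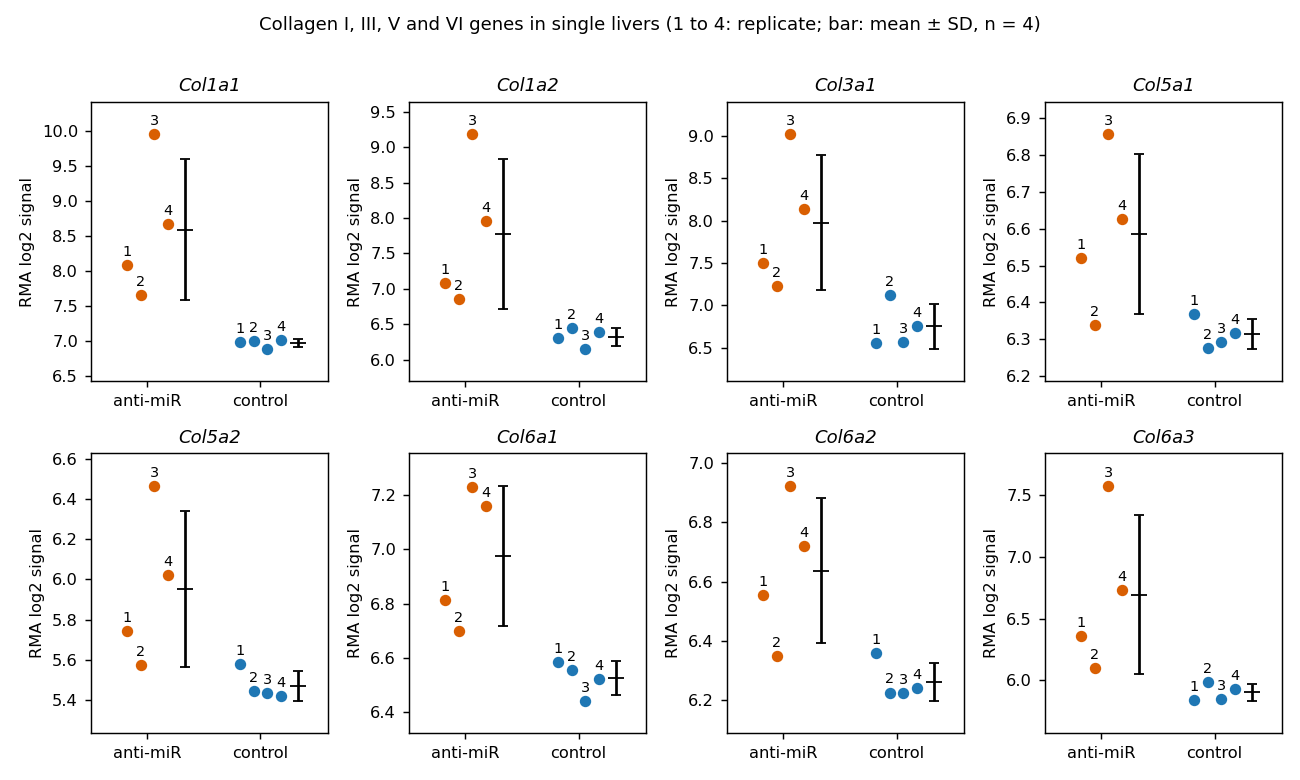
Log2 signal of 8 collagen genes in each liver, 1 panel per gene with its own vertical axis, anti-miR-128-3p livers on the left and control livers on the right of each panel. Points are single arrays numbered by mouse, and bars show the mean and SD (n = 4 each). In all 8 panels anti-miR-128-3p liver 3 is the highest point, liver 4 the next and liver 2 the lowest of the treated livers, while the control livers have SDs of 0.04 to 0.27.

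The type V chains regulate the diameter of type I fibrils. Col5a1 measured 6.52, 6.34, 6.86 and 6.63 in anti-miR-128-3p livers 1 to 4, against 6.37, 6.28, 6.29 and 6.32 in control livers 1 to 4, a difference of 0.27 ± 0.10 (SE, n = 4 each; limma adjusted p = 0.552). Col5a2 measured 5.74, 5.57, 6.47 and 6.02 in anti-miR-128-3p livers 1 to 4, against 5.58, 5.45, 5.43 and 5.42 in control livers 1 to 4, a difference of 0.48 ± 0.17 (SE, n = 4 each; limma adjusted p = 0.539). In both genes the groups overlapped, through anti-miR-128-3p liver 2 and control liver 1. Without anti-miR-128-3p liver 3 the differences were 0.18 for Col5a1 and 0.31 for Col5a2. Col5a3, the least widely expressed chain of the type, measured 6.90, 6.79, 6.78 and 6.86 in anti-miR-128-3p livers 1 to 4, against 6.76, 6.81, 6.76 and 6.79 in control livers 1 to 4. Its difference was 0.05 ± 0.04 (SE, n = 4 each; limma adjusted p = 0.848), with a 95% interval from -0.05 to 0.15, and liver 3 was the lowest treated liver for it.

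The other 5 fibrillar genes are Col2a1, the collagen of cartilage, Col11a1 and Col11a2, which are type II fibril partners in cartilage, and Col24a1 and Col27a1. Together with Col5a3 these genes had differences between 0.04 and 0.09 and adjusted p-values between 0.815 and 0.945 in limma. Their 95% intervals ran no lower than -0.09 and no higher than 0.24. The fibrillar class was thus made of 5 genes higher at an unadjusted p under 0.05 in limma (Col1a1, Col1a2, Col3a1, Col5a1 and Col5a2) and 6 genes with small differences of the same sign. At that threshold 4.26% of all genes were higher and 3.37% lower.

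Type IV collagen is the scaffold of basement membranes, where the widely expressed Col4a1 and Col4a2 chains join in 1 molecule. Col4a1 measured 6.71, 6.60, 6.96 and 6.77 in anti-miR-128-3p livers 1 to 4, against 6.50, 6.77, 6.36 and 6.47 in control livers 1 to 4. The groups overlapped, because control liver 2 was level with anti-miR-128-3p liver 4 and above livers 1 and 2. The difference was 0.23 ± 0.10 (SE, n = 4 each; limma adjusted p = 0.640), and 0.17 without anti-miR-128-3p liver 3. Col4a1 had an unadjusted p of 0.046 in limma with all arrays and 0.124 without that liver. Col4a2 measured 6.79, 6.54, 7.05 and 6.76 in anti-miR-128-3p livers 1 to 4, against 6.54, 6.87, 6.43 and 6.47 in control livers 1 to 4. Control liver 2 stood above the other controls for this chain as well. Its difference was 0.21 ± 0.13 (SE, n = 4 each; limma adjusted p = 0.770), and 0.12 without anti-miR-128-3p liver 3.

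The remaining type IV chains are restricted to specialised membranes such as those of the kidney glomerulus. Col4a3 measured 5.40, 5.26, 5.33 and 5.39 in anti-miR-128-3p livers 1 to 4, against 5.45, 5.33, 5.35 and 5.32 in control livers 1 to 4, a difference of -0.02 ± 0.05 (SE). Col4a4 measured 5.57, 5.38, 5.49 and 5.48 in anti-miR-128-3p livers 1 to 4, against 5.56, 5.43, 5.45 and 5.40 in control livers 1 to 4, a difference of 0.02 ± 0.06 (SE). These chains, which pair with each other and Col4a5 in the glomerulus, overlapped between the groups. Col4a5 measured 5.05, 4.88, 5.05 and 5.03 in anti-miR-128-3p livers 1 to 4, against 4.96, 4.83, 4.86 and 4.88 in control livers 1 to 4, a difference of 0.12 ± 0.05 (SE; limma adjusted p = 0.672). Col4a6 measured 4.39, 4.35, 4.46 and 4.43 in anti-miR-128-3p livers 1 to 4, against 4.49, 4.41, 4.42 and 4.33 in control livers 1 to 4, a difference of -0.01 ± 0.05 (SE), near the level of the negative controls. The signs of Col4a3, Col4a4 and Col4a6 turned when single arrays were left out.

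Type VI collagen forms beaded filaments between fibrils and basement membranes, and its classical molecule joins the Col6a1, Col6a2 and Col6a3 chains. Col6a1 measured 6.81, 6.70, 7.23 and 7.16 in anti-miR-128-3p livers 1 to 4, against 6.58, 6.56, 6.44 and 6.52 in control livers 1 to 4. No control liver reached the lowest treated liver, and livers 3 and 4 were close to each other. The difference was 0.45 ± 0.11 (SE, n = 4 each; limma adjusted p = 0.344), and 0.36 without liver 3.

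Col6a2 measured 6.56, 6.35, 6.92 and 6.72 in anti-miR-128-3p livers 1 to 4, against 6.36, 6.23, 6.22 and 6.24 in control livers 1 to 4. The groups overlapped by the single pair of anti-miR-128-3p liver 2 and control liver 1. The difference was 0.38 ± 0.11 (SE, n = 4 each; limma adjusted p = 0.433). Col6a3, whose C-terminal fragment is released as endotrophin, measured 6.36, 6.10, 7.58 and 6.73 in anti-miR-128-3p livers 1 to 4, against 5.84, 5.98, 5.85 and 5.93 in control livers 1 to 4. The groups did not overlap. The difference was 0.79 ± 0.27 (SE, n = 4 each; limma adjusted p = 0.521), and 0.50 without liver 3.

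The alternative type VI chains are Col6a4, Col6a5 and Col6a6. Their differences from the controls lay between -0.01 and 0.03, with 95% intervals no lower than -0.17 and no higher than 0.16, and adjusted p-values between 0.946 and 0.997 in limma. Type VI as a whole had a median difference of 0.20 over its 6 chains. At an unadjusted p under 0.05 in limma 3 of these chains were higher (4.26% of all genes) and 0 lower (3.37% of all genes).

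Fibril-associated collagens (types IX, XII, XIV, XVI, XIX and XXII, known as FACIT) bind the surface of fibrils. The 8 measured members had a median difference of 0.005, and the largest in each direction were Col12a1 and Col14a1. Col12a1, a type XII chain found in dense connective tissue, measured 4.42, 4.46, 5.76 and 5.16 in anti-miR-128-3p livers 1 to 4, against 4.36, 4.52, 4.54 and 4.29 in control livers 1 to 4. Only anti-miR-128-3p livers 3 and 4 were above the controls, and the other treated livers were within their range. The difference was 0.52 ± 0.27 (SE, n = 4 each; limma adjusted p = 0.711), and 0.25 without liver 3.

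Col14a1 was the only collagen below the controls at an unadjusted p under 0.05 in limma, as 3.37% of all genes were. It measured 7.97, 8.08, 7.95 and 8.15 in anti-miR-128-3p livers 1 to 4, against 8.05, 8.48, 8.21 and 8.32 in control livers 1 to 4. Control liver 1 lay within the treated range. The difference was -0.23 ± 0.09 (SE, n = 4 each; limma adjusted p = 0.607), and -0.20 without liver 3, where the unadjusted p was above that threshold. Liver 3 was the lowest of all livers for Col14a1, whereas it was the highest for Col1a1, Col1a2, Col3a1, Col5a1, Col5a2, Col6a1, Col6a2 and Col6a3. The other FACIT members, Col9a1, Col9a2, Col9a3, Col16a1, Col19a1 and Col22a1, had differences between -0.01 and 0.06.

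Col15a1 and Col18a1 encode basement membrane proteoglycans whose C-terminal ends are released as fragments that inhibit vessel growth (endostatin in type XVIII). Col15a1 measured 5.65, 5.63, 6.00 and 5.82 in anti-miR-128-3p livers 1 to 4, against 5.68, 5.57, 5.47 and 5.55 in control livers 1 to 4. The groups overlapped through control liver 1. The difference was 0.21 ± 0.09 (SE, n = 4 each; limma adjusted p = 0.629), and it was 0.13 without anti-miR-128-3p liver 3. Col15a1 had an unadjusted p of 0.042 in limma with all arrays and 0.098 without that liver.

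Col18a1 was above the 95th percentile of the negative controls in all 8 livers. It measured 9.79, 9.74, 9.48 and 9.74 in anti-miR-128-3p livers 1 to 4, against 9.67, 9.76, 9.83 and 9.37 in control livers 1 to 4. The groups overlapped throughout, and liver 3 was the lowest treated liver. The difference was 0.03 ± 0.11 (SE, n = 4 each; limma adjusted p = 0.979) with a 95% interval from -0.21 to 0.27.

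Among the short-chain network collagens, Col8a1 differed by 0.23 ± 0.11 (SE; limma adjusted p = 0.669) and by 0.12 without anti-miR-128-3p liver 3. It was at or below the median of the negative controls in 7 of the 8 arrays. Col8a2 and Col10a1, a marker of growth plate cartilage, each differed by -0.08. The transmembrane collagens Col13a1, Col17a1 and Col23a1 lay between -0.02 and 0.06, and Col26a1 and Col28a1 lay at 0.02 and 0.01. Leaving out Col8a1, Col12a1 and Col14a1, the 16 members of other classes not given per liver lay between -0.08 and 0.06, with 95% intervals no lower than -0.21 and no higher than 0.18.

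The livers within the anti-miR-128-3p group differed in the same order for many of these genes. Without anti-miR-128-3p liver 3, 8 of 41 collagens were higher at an unadjusted p under 0.05 in limma (4.63% of all genes) and 0 lower (3.32% of all genes). Col4a1 and Col15a1 were higher at that threshold with all arrays but not without that liver. The 8 genes were Col1a1, Col1a2, Col3a1, Col5a1, Col5a2, Col6a1, Col6a2 and Col6a3, all among the 10 collagens higher with all arrays. In each of these 8 genes the treated livers stood in the order 3, 4, 1, 2 from high to low. Over all 41 collagens 12 had that order, and 3.66% of all genes had it. This order was noticed in the values and is given as a description. Liver 3 held the highest signal of all 8 livers in 15 of 41 collagens, and in 9.02% of all genes.

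The SD was larger in the anti-miR-128-3p group for 32 of 41 collagens. The share of all genes with a larger SD in that group was not counted, so this is not read as a trait of the collagens. In the 8 genes just named the SDs were 0.22 to 1.05 in anti-miR-128-3p livers and 0.04 to 0.27 in control livers. Of the other 33 collagens, 22 were highest in array 1 of one group or the other, and anti-miR-128-3p liver 2 was the lowest treated liver in 26. Those arrays also had the highest and lowest medians over all genes within each group (5.12 in liver 1 and 5.04 in liver 2 of the anti-miR-128-3p group, and the same values in controls 1 and 2). With each array centred on its median, the class medians were 0.08 for fibrillar, 0.06 for type IV and 0.01 for other collagens.

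**Figure D3:**
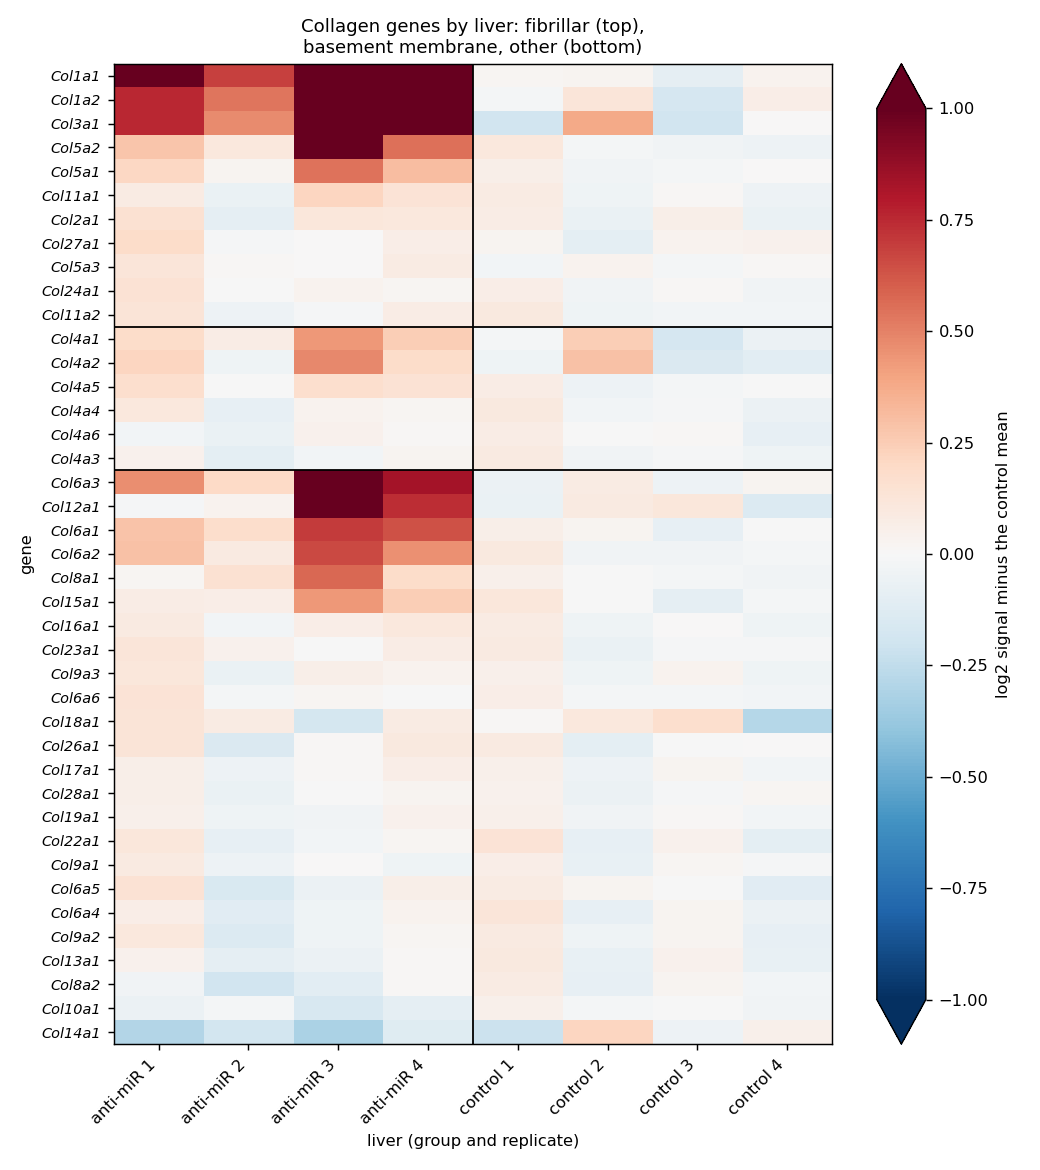
Log2 signal of each of the 41 collagens (rows, by class) in each liver (columns, anti-miR-128-3p livers 1 to 4 left and control livers 1 to 4 right), minus the mean of the 4 control livers for that gene. The colour scale ends at 1 in each direction, so larger values share its end colour. Values above 1 lie in anti-miR-128-3p liver 3 for Col1a1, Col1a2, Col3a1, Col6a3 and Col12a1, in liver 4 for Col1a1, Col1a2 and Col3a1 and in liver 1 for Col1a1, and Col14a1 is below the control mean in all 4 treated livers.

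Several collagen genes lie side by side in the genome, and their values can be set next to each other. In the RefSeq gene order Col3a1 neighbours Col5a2, and the differences were 1.22 and 0.48. The pair Col6a2 and Col6a1 had 0.38 and 0.45, and the pair Col4a1 and Col4a2, which are transcribed from a shared promoter region, had 0.23 and 0.21. The pairs Col4a4 and Col4a3 (0.02 and -0.02), Col9a1 and Col19a1 (0.0001 and 0.01) and the run Col6a6, Col6a5 and Col6a4 (0.03, -0.0023 and -0.01) were all close to 0, while Col4a6 and Col4a5 had -0.01 and 0.12.

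The 250 bases before the annotated start are shown for the 3 genes with the largest differences that have a window in the RefSeq promoter table (GRCm38.p6), because these genes were highest in the same livers. A window was found for 32 of the 41 collagens and for 6 of the 8 genes named above. Capitals mark 4 motifs that were searched on both strands, a match on the other strand being printed as its reverse complement. The CCAAT box was searched as CCAAT. The TATA box was searched as TATAAA. The GC box bound by Sp1 was searched as GGGCGG. The Smad binding element was searched as CAGACA. The motifs share no overlapping match in these windows. The windows are chr6:4505368-4505617 on the plus strand for Col1a2, chr1:45311288-45311537 on the plus strand for Col3a1 and chr1:90843972-90844221 on the minus strand for Col6a3, each written 5′ to 3′ towards the gene.
Col1a2: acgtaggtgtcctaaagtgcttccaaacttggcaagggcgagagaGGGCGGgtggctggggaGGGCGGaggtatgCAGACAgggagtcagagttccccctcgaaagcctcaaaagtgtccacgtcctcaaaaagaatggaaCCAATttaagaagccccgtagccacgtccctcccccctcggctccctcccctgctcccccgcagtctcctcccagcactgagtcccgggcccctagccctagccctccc
Col3a1: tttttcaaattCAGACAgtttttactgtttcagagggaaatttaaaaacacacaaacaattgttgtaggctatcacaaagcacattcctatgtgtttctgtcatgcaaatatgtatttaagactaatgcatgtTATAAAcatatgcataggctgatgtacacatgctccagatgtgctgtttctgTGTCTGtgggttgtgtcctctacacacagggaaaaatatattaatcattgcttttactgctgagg
Col6a3: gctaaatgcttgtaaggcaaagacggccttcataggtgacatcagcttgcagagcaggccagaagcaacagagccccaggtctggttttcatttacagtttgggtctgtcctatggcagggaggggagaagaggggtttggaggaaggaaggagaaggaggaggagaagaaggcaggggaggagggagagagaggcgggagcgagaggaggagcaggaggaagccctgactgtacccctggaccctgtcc

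The Col1a2 window held CCAAT 109 bases before the start, GGGCGG at 205 and 188 bases and CAGACA at 175 bases. The Col3a1 window held TATAAA at 117 bases and CAGACA at 239 bases, and its reverse complement at 65 bases. The Col6a3 window held none of the 4 motifs, so the 3 windows had no motif in common. Over the 32851 mouse windows of that length CCAAT was found in 33.8%, TATAAA in 12.4%, GGGCGG in 32.7% and CAGACA in 17.1%. In the 35 windows of the 32 collagen genes the shares were 31.4%, 14.3%, 57.1% and 20% in the same order, and a match is a string of letters and not a site of binding.

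Procollagen chains are hydroxylated and folded in the endoplasmic reticulum, and the genes for this were measured for 23 of 25 listed members. Of these 13 had a higher and 10 a lower mean than in controls, with a median difference of 0.01. At an unadjusted p under 0.05 in limma 2 were higher (4.26% of all genes) and 0 lower (3.37% of all genes), and without anti-miR-128-3p liver 3 these counts were 0 and 1, Sec23a at -0.14 (4.63% and 3.32% of all genes). Serpinh1, the collagen chaperone HSP47, measured 5.65, 5.69, 6.07 and 5.85 in anti-miR-128-3p livers 1 to 4, against 5.60, 5.64, 5.60 and 5.59 in control livers 1 to 4, a difference of 0.21 ± 0.09 (SE; limma adjusted p = 0.631). Plod2, the telopeptide lysyl hydroxylase, differed by 0.42 ± 0.19 (SE). Without anti-miR-128-3p liver 3 the differences were 0.12 for Serpinh1 and 0.26 for Plod2, and neither had an unadjusted p under 0.05. Plod1 and Sec24d, the last a coat protein of collagen export vesicles, differed by -0.15 ± 0.08 and -0.32 ± 0.14 (SE). In Serpinh1 the groups did not overlap, although anti-miR-128-3p liver 1 was barely above control liver 2.

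Cleavage of the propeptides and cross-linking by lysyl oxidases follow outside the cell. Of 21 measured members of 23 listed, 12 had a higher and 9 a lower mean than in controls, with a median of 0.004. At an unadjusted p under 0.05 in limma 4 were higher (4.26% of all genes) and 0 lower (3.37% of all genes). Without anti-miR-128-3p liver 3 these counts were 2 (4.63% of all genes) and 1, the proteoglycan Dcn at -0.23 (3.32% of all genes). Loxl1, a lysyl oxidase, measured 5.71, 5.89, 6.66 and 6.43 in anti-miR-128-3p livers 1 to 4, against 5.43, 5.65, 5.49 and 5.62 in control livers 1 to 4, without overlap. Its difference was 0.63 ± 0.19 (SE; limma adjusted p = 0.457). Lox differed by 0.43 ± 0.17, the collagen-binding protein Sparc by 0.71 ± 0.29 and the fibril-regulating proteoglycan Lum by 0.74 ± 0.32 (SE), each highest in anti-miR-128-3p liver 3. Without that liver the differences were 0.47 for Loxl1, 0.24 for Lox, 0.46 for Sparc and 0.40 for Lum, and Sparc and Lum no longer had an unadjusted p under 0.05.

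Of the collagenases, gelatinases and inhibitors 18 of 19 were measured, 10 with a higher and 8 with a lower mean than in controls, with a median of 0.004. At an unadjusted p under 0.05 in limma 1 member was higher (4.26% of all genes) and 0 lower (3.37% of all genes). That member was Mmp2, a gelatinase that cleaves denatured and type IV collagen. It measured 6.30, 6.53, 7.90 and 7.35 in anti-miR-128-3p livers 1 to 4, against 5.71, 6.16, 5.53 and 5.73 in control livers 1 to 4. The groups did not overlap, and the difference was 1.24 ± 0.32 (SE; limma adjusted p = 0.346), and 0.94 without liver 3. Mmp19 (-0.17), the prolidase Pepd (-0.17) and the lysosomal protease Ctsl (0.15) followed by p, with overlapping groups.

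Among collagen receptors 12 of 13 were measured, 7 with a higher and 5 with a lower mean, with a median of 0.01. Mrc2, the endocytic collagen receptor Endo180, differed by 0.22 ± 0.08 (SE; limma adjusted p = 0.584) without overlap, and by 0.15 without anti-miR-128-3p liver 3. The collagen-activated kinase Ddr2 differed by -0.17 ± 0.08 (SE), and by -0.23 without that liver. At an unadjusted p under 0.05 in limma 1 receptor, Mrc2, was higher (4.26% of all genes) and 0 were lower (3.37% of all genes). Without anti-miR-128-3p liver 3 the counts were 0 (4.63% of all genes) and 1, Ddr2 (3.32% of all genes). Of the 28 regulators of collagen transcription and messenger RNA, 14 had a higher and 14 a lower mean, with a median of 0.004. At an unadjusted p under 0.05 in limma 3 were higher (4.26% of all genes) and 1 lower (3.37% of all genes). Klf6 (0.40 ± 0.14), the growth factor Pdgfc (0.33 ± 0.11) and the ligand Tgfb3 (0.38 ± 0.14) were higher, and Smad7, an inhibitor of TGF-beta signalling, was lower (-0.31 ± 0.13, SE), with adjusted p-values between 0.521 and 0.631 in limma. Without anti-miR-128-3p liver 3 the differences were 0.31 for Klf6, 0.30 for Pdgfc, 0.24 for Tgfb3 and -0.27 for Smad7, and Smad7 no longer had an unadjusted p under 0.05. Each of the 5 lists thus held members of both signs, with medians between 0.004 and 0.01.

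Markers of the cells that make collagen were set beside these values. Of the 10 listed markers of activated stellate cells or myofibroblasts 9 were measured. Lox is also on the cross-linking list, and Timp1 and Fap are also on the list of collagenases, gelatinases and inhibitors. All 9 had a higher mean than in controls, with a median difference of 0.43, or 0.19 without anti-miR-128-3p liver 3. At an unadjusted p under 0.05 in limma 2 were higher (4.26% of all genes) and 0 lower (3.37% of all genes), and the smallest adjusted p was 0.550. Their summed signal on the linear scale ran from 473 to 1375 in anti-miR-128-3p livers and from 442 to 529 in control livers, and all 9 were highest in liver 3. Postn measured 6.99, 6.57, 8.36 and 7.65 in anti-miR-128-3p livers 1 to 4, against 6.35, 6.49, 6.35 and 6.66 in control livers 1 to 4, and Tnc 5.09, 5.24, 7.60 and 6.48, against 4.96, 5.16, 4.93 and 5.05. These matrix proteins, like the leading collagens, were highest in liver 3 and next in liver 4. In both genes the groups overlapped. For Postn anti-miR-128-3p liver 2 (6.57) was below control liver 4 (6.66). For Tnc anti-miR-128-3p liver 1 (5.09) was below control liver 2 (5.16). Fap was at or below the negative control median in every array, and Lox was above it in only 2 of the 8 arrays.

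Of the 10 portal fibroblast markers, all measured, 9 had a higher mean than in controls, with a median of 0.08 and summed signals of 815 to 1223 in anti-miR-128-3p livers and 730 to 925 in control livers. Mfap4, a microfibril protein, differed by 0.62 ± 0.19 (SE; limma adjusted p = 0.455) without overlap. Of 8 measured quiescent stellate cell markers of 10 listed, 4 had a higher and 4 a lower mean, with a median of -0.02 and sums of 1503 to 1665 in anti-miR-128-3p livers and 1473 to 1914 in control livers. Reln, a stellate cell glycoprotein, differed by -0.29 ± 0.09 (SE; limma adjusted p = 0.437). The part of any change in cell numbers in the collagen values was not tested.

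Other cell types that can carry collagen were checked in the same way. All 5 smooth muscle markers had a higher mean than in controls (median 0.17, or 0.07 without anti-miR-128-3p liver 3), and 4 of them were highest in liver 3 and had the treated order 3, 4, 1, 2, with sums of 225 to 321 in anti-miR-128-3p livers and 236 to 244 in control livers. The 7 mesothelial markers divided into 4 with a higher and 3 with a lower mean, with sums of 215 to 257 in anti-miR-128-3p livers and 222 to 247 in control livers. Of 8 sinusoidal endothelial markers 7 had a lower mean than in controls (median -0.26), with sums of 1616 to 2311 in anti-miR-128-3p livers and 1876 to 2776 in control livers. All 6 Kupffer cell markers had a higher mean than in controls (median 0.61), with sums of 1465 to 3988 in anti-miR-128-3p livers and 954 to 1991 in control livers, and their highest treated liver was liver 1 rather than liver 3. The hepatocyte markers had a median of -0.02 and sums of 70471 to 80174 in anti-miR-128-3p livers and 73309 to 75438 in control livers. Of the cholangiocyte markers 1 of 6 had a higher mean than in controls, with Epcam and Tspan8 at or below the negative control median throughout. Adipoq and Lep were likewise at or below it among 4 fat markers. The 5 neutrophil markers had a lower mean than in controls (median -0.35), with sums of 83.9 to 129 in anti-miR-128-3p livers and 80.3 to 728 in control livers, where control liver 1 held the highest value. Whether any of these moved the collagen values was not tested.

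**Figure D4:**
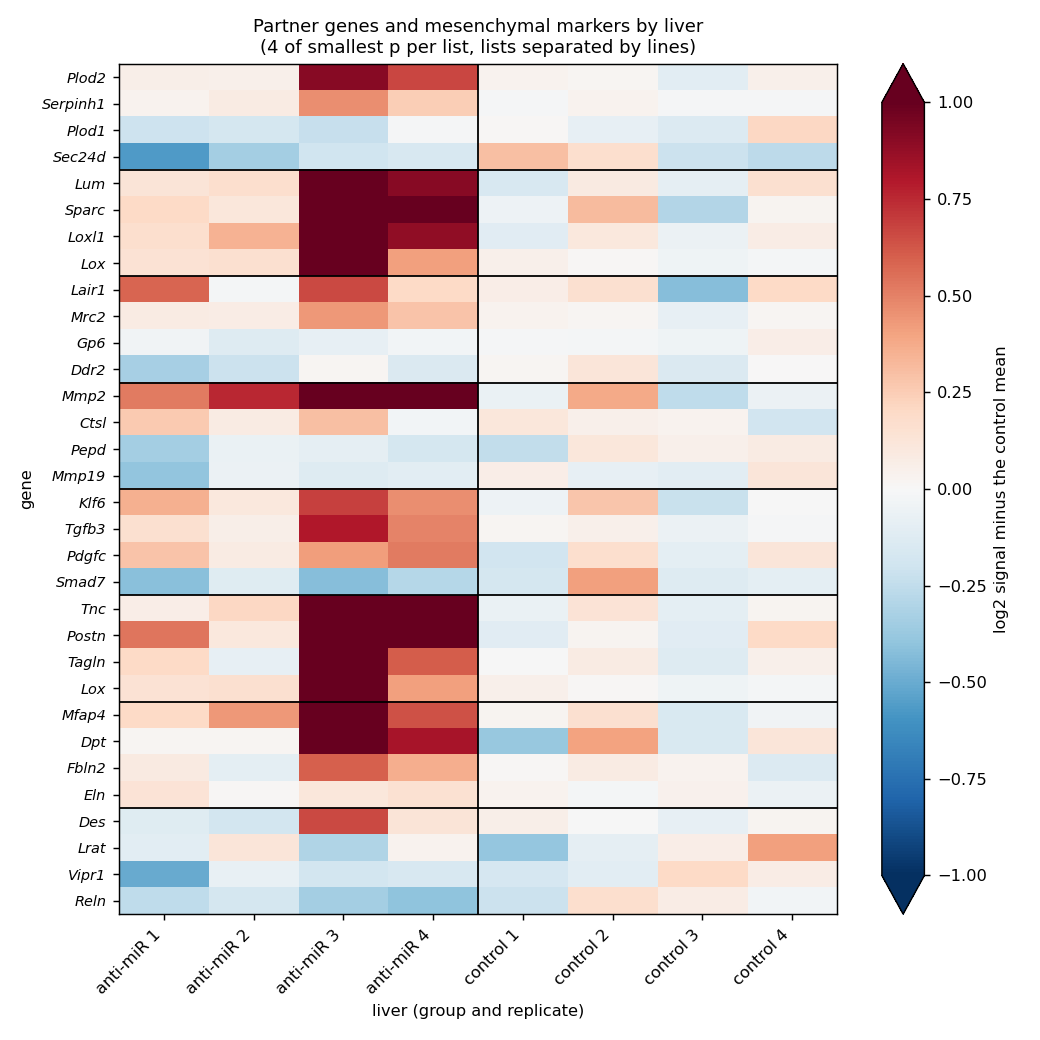
Log2 signal in each liver (columns, anti-miR-128-3p livers 1 to 4 left and control livers 1 to 4 right) minus the mean of the 4 control livers, for the up to 4 members with the smallest limma p of the 5 partner lists and of the activated stellate cell, portal fibroblast and quiescent stellate cell markers (rows). Colours end at 1 in each direction. Mmp2, Loxl1, Tnc and Postn have their strongest colour in anti-miR-128-3p livers 3 and 4, whereas Reln is below the control mean in all 4 treated livers.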

How the data were processed

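RNA from 8 mouse livers was measured on a whole-transcript Affymetrix array after TRIzol extraction and biotin labelling, per the labels' protocols. The authors deposited log2 values from RMA, per the submitters' processing notes. RMA corrects background, equalises the arrays' distributions and summarises probes. For the RMA software, neither version nor annotation is given in the sources used here, and there is no detection call. Of 72688 table entries 6732 were array controls, and 33206 of 65956 transcript probe sets are not listed in the platform annotation and stay unnamed. From 31080 probe sets naming 1 gene came 30627 genes, and where a gene had several (357 genes) the brightest on average across the 8 arrays represented it. Symbols were updated through Entrez IDs with a RefSeq table (GRCm38.p6). Arrays give no counts, so their number (4 against 4) limits the precision.

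Tests used limma's lmFit and eBayes (version 3.58.1, R version 4.3.3; two-sided, all 8 arrays, no covariate), with Benjamini-Hochberg adjustment over all 30627 genes and a threshold of 0.05. Intervals are limma's 95% intervals, and sums of signal are of linear values. The fit was run on simulated data in which each gene had the same SD in both groups. Col1a1, with SDs of 1.00 in anti-miR-128-3p and 0.06 in control livers, lies outside that setting, so nothing is concluded from it about such genes. Tables were made with pandas 2.3.3 and plots with matplotlib 3.10.9, under Python 3.11.15. The members and gene lists were chosen with earlier results of these data known. Every collagen is named. Values per liver are given for types I, III, IV, V, XV and XVIII, Col6a1, Col6a2, Col6a3 and members without overlap. They are also given for Col12a1 and Col14a1, which, like Sec23a and Dcn, were singled out after their values were seen. Up to 4 members of a partner or marker list were eligible to be named, by smallest p. Some members shared between lists, or at or below the negative control median, were named for that, whatever their p. All of the neighbouring-gene and promoter values are descriptions. Replicate numbers stand in both groups' titles, but deviations from the group means of same-numbered arrays correlated at -0.042, -0.041, -0.108 and -0.149 over 15314 genes, so the numbers were not taken to pair the mice. Alternatives were a robust fit with a variance trend, weighted arrays, omission of dim genes, other choices of probe set, further normalization, the replicate number as a block, a threshold of 0.1 on the adjusted p, and omission of each array in turn.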

Additional observations from a re-analysis of the deposited data

Results flagged for a closer look

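In 7 of the 82 groups of 4 livers (41 collagens in each group of mice) 1 liver stood apart from the other three by Dixon's test, and chance flags about 1 in 20 such groups. In Col18a1, a liver-rich basement membrane collagen, anti-miR-128-3p liver 3 was the lowest at 9.48, with the other treated livers between 9.74 and 9.79. In Col4a5 anti-miR-128-3p liver 2 was the lowest at 4.88, with the others between 5.03 and 5.05. Control liver 1 was the highest in Col11a2 (6.32, others 6.18 to 6.19), Col6a2 (6.36, others 6.22 to 6.24) and Col6a6 (5.38, others 5.30). Control liver 3 was the lowest in Col1a1 at 6.88, with the others between 6.99 and 7.01. Control liver 2 was the lowest in Col27a1 at 6.60, with the others between 6.72 and 6.74.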

How the results depend on the processing

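The number of collagens past an adjusted p of 0.05 was 0 under every alternative run with limma, including an adjusted p under 0.1 and each array left out in turn. At an unadjusted p under 0.05 it was 11 in the main analysis (4.26% of all genes higher and 3.37% lower). It was 9 with the replicate number as a replicate block and 8 to 15 with single arrays left out. Among these alternatives the share of all genes was counted only without anti-miR-128-3p liver 3 (4.63% higher and 3.32% lower). The number without overlap between the groups in either direction was 5 in the main analysis (2.52% of all genes wholly above and 1.89% wholly below). It was 8 with arrays centred on their medians, where the share of all genes was not counted, and 5 to 13 with single arrays left out. Under those omissions 3.18% to 4.83% of all genes were wholly above and 2.89% to 3.99% wholly below. The replicate block changed no other call. Leaving out single arrays gave medians of 0.07 to 0.14 for fibrillar, 0.05 to 0.11 for type IV and -0.0070 to 0.05 for other collagens, and differences of 1.17 to 1.94 for Col1a1, 0.98 to 1.75 for Col1a2 and 0.87 to 1.47 for Col3a1. Differences of single genes were followed under all alternatives only for types I, III, IV, V, XV and XVIII, Col6a1, Col6a2 and Col6a3. Among these, signs turned for Col4a3, Col4a4, Col4a6 and Col18a1. Col4a3 was 0.013 without anti-miR-128-3p replicate 2 and 0.016 without control replicate 1, within -0.033 to 0.016 over single arrays left out. Col4a4 was -0.0032 with quantile normalization, -0.010 without anti-miR-128-3p replicate 1 and -0.00073 without control replicate 4, within -0.010 to 0.053. Col4a6 was 0.012 without anti-miR-128-3p replicate 2 and 0.016 without control replicate 1, within -0.036 to 0.016. Col18a1 was -0.0030 without anti-miR-128-3p replicate 1 and -0.065 without control replicate 4, within -0.065 to 0.098. Of the collagens not followed in this way, Col9a1 (-0.0023) and Col6a5 (0.017) also turned without anti-miR-128-3p replicate 3. The cause was not tested. Most collagens lay below the 95th percentile of the negative controls, which limits what small differences in them can show.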

Other observations

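The 3 collagens left out as not assigned to a single gene record had small differences. Col7a1, the anchoring fibril collagen, shares its probe set with Mir711 and had mean signals of 6.45 ± 0.08 in anti-miR-128-3p livers and 6.42 ± 0.10 in control livers (SD, n = 4 each). Col20a1 had 5.79 ± 0.16 and 5.94 ± 0.06, and Col25a1, a brain collagen, had 4.93 ± 0.06 and 4.89 ± 0.07 in the same order. None of them was tested.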
